A study of Homo sapiens with 12 samples.

Results

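The proteasome genes measured here were the rows of the deposited gene table that are protein-coding in GENCODE and whose symbol begins with PSMA, PSMB, PSMC, PSMD, PSME or PSMG followed by a digit, without PSMB8 and PSMB9. This rule uses names and no expression value. It gave 44 genes of the 63541 gene IDs in the table. HEK293T cells, a line from human embryonic kidney that carries the SV40 large T antigen, were transfected for 48 h with siRNA at 12.5 nM. The 4 groups of 3 replicates received a scramble control siRNA or 1 of 3 siRNAs that target snaR-A, a short noncoding RNA made by RNA polymerase III, which the labels call si-snaR-A#1, si-snaR-A#2 or si-snaR-A#3. All groups shared the cell line, the transfection with Lipofectamine, the dose and the time, and untransfected cells were not part of the comparison. The methods of the study describe biological replicates handled on 1 day, and p-values then measure the spread between cultures of a single line. PSMC4, PSME1 and PSME2 match the naming rule but were not analysed here. PSMC3IP, a meiotic recombination factor, and PSME3IP1, a protein that binds the activator PSME3, match by symbol and encode neither a subunit nor an assembly factor.

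The proteasome degrades proteins marked with ubiquitin. Its barrel-shaped core is built from outer alpha rings and inner beta rings, and only PSMB5, PSMB6 and PSMB7 carry the usual active sites. The regulatory particle that caps the core has a ring of ATPases, the PSMC subunits, which unfold substrates and thread them into the barrel, and a set of non-ATPase subunits, most of the PSMD genes, which bind and remove ubiquitin. Chaperones build the core (PSMG1 to PSMG4) and the ATPase ring (PSMD5, PSMD9 and PSMD10) and leave before the particle works. Cells whose proteasome is blocked raise transcription of these genes together through the factor NFE2L1, which binds antioxidant response elements in their promoters.

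Library totals were between 120.4 and 180.1 M estimated counts, and the TMM factors that scale the libraries were between 1.01 and 1.03 for scramble, 1.03 and 1.09 after si-snaR-A#1, 0.962 and 0.970 after si-snaR-A#2 and 0.956 and 0.973 after si-snaR-A#3. Of the gene IDs matched to GENCODE release 44, 0 had a symbol beginning with SNAR, so the depth of the knockdown was not checked here. The labels call the cells epithelial cells of kidney. KRT8, KRT18, EPCAM and CDH1 were present and KRT19 was near 0, while the 5 markers of mature kidney (UMOD, SLC34A1, AQP2, SLC12A1 and SLC12A3) together reached at most 0.050 CPM in any library and none passed the filter on low counts. Genes such as VIM and NEFM, known from HEK293 lines, were abundant. Of the blood cell markers, PTPRC, CD3E, LYZ and CD74 together lay between 0.214 and 0.485 CPM.

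The promoters of the 5 members called higher with all 3 siRNAs are shown first, because each of these members rose with every siRNA. Each is the RefSeq window on GRCh38.p14 from 250 bases before to 50 bases after the start site, read 5′ to 3′ on the gene's strand. Capitals mark the ETS core, CCGGAAG or its complement CTTCCGG. The window of PSMC3, an ATPase of the cap, lies at chr11:47426390-47426689 (minus strand). That of PSMD2, the large scaffold of the cap that docks ubiquitin receptors, lies at chr3:184298991-184299290 (plus strand), the first of its 2 RefSeq starts. The windows of PSMD8, a subunit of the lid of the cap, and PSME4, an activator that caps the core without ATPases, lie at chr19:38374321-38374620 (plus strand) and chr2:53970944-53971243 (minus strand). That of PSMG4, a chaperone of alpha ring assembly, lies at chr6:3258697-3258996 (plus strand). The span of PSMG4 in GENCODE starts further upstream, so this RefSeq window lies inside the gene as counted.

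PSMC3: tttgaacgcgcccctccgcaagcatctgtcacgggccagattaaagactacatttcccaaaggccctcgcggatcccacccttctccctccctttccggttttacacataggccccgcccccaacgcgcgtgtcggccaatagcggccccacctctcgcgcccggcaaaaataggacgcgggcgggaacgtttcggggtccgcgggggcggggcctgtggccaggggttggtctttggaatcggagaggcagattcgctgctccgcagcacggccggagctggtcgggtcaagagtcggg
PSMD2: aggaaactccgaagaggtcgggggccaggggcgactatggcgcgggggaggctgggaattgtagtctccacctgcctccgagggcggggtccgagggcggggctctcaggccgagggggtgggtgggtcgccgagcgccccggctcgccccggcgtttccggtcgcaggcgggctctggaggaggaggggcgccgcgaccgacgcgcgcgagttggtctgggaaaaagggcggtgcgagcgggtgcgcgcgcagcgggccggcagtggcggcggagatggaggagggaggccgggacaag
PSMD8: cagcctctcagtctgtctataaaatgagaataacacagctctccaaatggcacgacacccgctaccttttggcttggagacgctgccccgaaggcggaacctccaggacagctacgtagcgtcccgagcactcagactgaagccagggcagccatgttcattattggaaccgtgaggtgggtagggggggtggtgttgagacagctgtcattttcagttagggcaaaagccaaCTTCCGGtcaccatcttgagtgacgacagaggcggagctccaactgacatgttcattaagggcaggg
PSME4: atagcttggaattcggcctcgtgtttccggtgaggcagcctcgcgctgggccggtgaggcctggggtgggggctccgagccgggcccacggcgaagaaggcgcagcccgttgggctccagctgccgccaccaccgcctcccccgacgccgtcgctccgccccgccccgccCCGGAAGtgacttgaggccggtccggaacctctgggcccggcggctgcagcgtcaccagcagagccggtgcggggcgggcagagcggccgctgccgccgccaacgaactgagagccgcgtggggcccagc
PSMG4: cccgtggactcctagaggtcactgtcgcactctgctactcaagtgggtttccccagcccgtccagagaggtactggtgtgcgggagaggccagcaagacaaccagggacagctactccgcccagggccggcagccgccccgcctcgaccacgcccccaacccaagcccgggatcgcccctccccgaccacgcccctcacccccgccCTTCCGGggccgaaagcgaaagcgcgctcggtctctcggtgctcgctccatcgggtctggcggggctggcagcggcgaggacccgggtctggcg

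The ETS core was present in 3 of these 5 windows, with its first base 17 bases before the start site in PSMD8, 80 before it in PSME4 and 44 before it in PSMG4. PSME4 also held the antioxidant response element core TGACNNNGC, first base 34 bases before the start. Over the 38 members that matched a RefSeq window, 16 (42.1%) held the ETS core on either strand, against 19.3% of the 13270 tested genes with a window and 12.2% of all 27305 genes with one. The CCAAT box (CCAAT) was found in 21 members (55.3%, against 42.5% of tested genes), the antioxidant response element core in 11 (28.9%, against 18.8%) and the GC box (GGGCGG) in 25 (65.8%, against 73.3%). Both strands were searched, none of the 4 words contains another, and a gene with several windows counted once. The 38 members include PSMA8 and PSMB11, which did not pass the filter on low counts, and PSMC3IP and PSME3IP1. PSMA8, PSMC3IP and PSME3IP1 are among the 16 with the ETS core. The gaps between members and tested genes were not tested. A match is a run of letters in the window and was not measured as a binding site.

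The constitutive members were all well expressed, and the core subunits of other tissues were nearly absent. In the scramble libraries, levels per length (CPM per kb of the Ensembl canonical transcript, mean ± SD, n = 3) ran in the alpha ring from 30.4 ± 0.745 for PSMA5 to 153 ± 6.90 for PSMA1, and in the beta ring from 37.3 ± 1.74 for PSMB2 to 244 ± 11.8 for PSMB1. The 14 constitutive core subunits thus spanned an 8.03-fold range, although the finished core holds each in equal number. The chymotrypsin-like subunit PSMB5 stood at 82.8 ± 5.62, the caspase-like PSMB6 at 71.9 ± 3.49 and the trypsin-like PSMB7 at 105 ± 3.39 CPM per kb. ATPases lay between 33.9 ± 1.13 for PSMC1 and 68.9 ± 1.92 for PSMC5, and the non-ATPase subunits of the cap between 29.1 ± 0.289 for PSMD12 and 113 ± 1.21 for the ubiquitin receptor PSMD4. The core chaperones were lower, between 17.6 ± 0.223 for PSMG4 and 32.8 ± 1.37 for PSMG2. Among base chaperones, PSMD10 (gankyrin) stood at 87.9 ± 3.56 CPM per kb, 15.4-fold above PSMD5 at 5.73 ± 0.151. The lengths of the transcripts in use in these cells were not measured, so levels per length are approximate.

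PSMB10, the interferon-induced trypsin-like subunit of the immunoproteasome, was the lowest of the tested members at 3.39 ± 0.122 CPM per kb. PSMA8, the alpha subunit of testis, and PSMB11, the beta subunit of thymus cortex, did not pass the filter on low counts. PSMA8 stood at 0.0202, 0.0157 and 0.0182 CPM in scramble, 0.0242, 0.0266 and 0.0218 after si-snaR-A#1, 0.00668, 0 and 0.00798 after si-snaR-A#2 and 0.00668, 0.00758 and 0.00823 after si-snaR-A#3, at most 3.95 estimated counts in a library. PSMB11 was at 0 in 9 of 12 libraries and reached 2.02 estimated counts at most. Neither could be compared between groups at this depth. All other 42 members were tested.

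**Figure D1:**
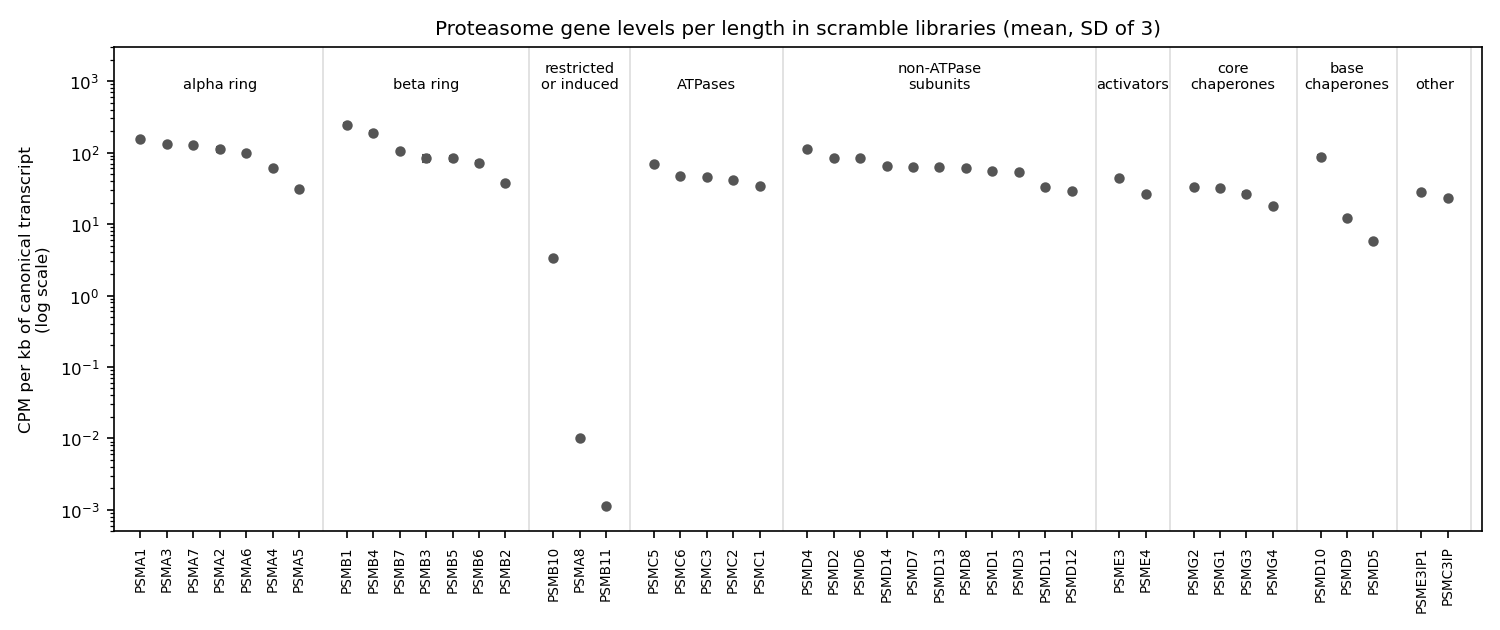
Level of each of the 44 genes in the scramble libraries, in CPM per kb of canonical transcript on a log axis, grouped by role, with points for the mean and bars for the SD of 3 libraries (no bars for PSMA8 and PSMB11, which were outside the fit). PSMA8 and PSMB11 lie far below the rest, and PSMB10 below all other tested members.

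Together the 44 members took between 0.467% and 0.493% of all counts in a library. As a share before scaling between libraries, the group means were 0.477 ± 0.00965% for scramble, 0.481 ± 0.00963% after si-snaR-A#1, 0.471 ± 0.00264% after si-snaR-A#2 and 0.489 ± 0.00487% after si-snaR-A#3 (SD, n = 3). After TMM scaling the summed CPM was 4696 ± 121 for scramble, 4561 ± 215 after si-snaR-A#1, 4872 ± 50.9 after si-snaR-A#2 and 5077 ± 72.0 after si-snaR-A#3. The order of scramble, si-snaR-A#1 and si-snaR-A#2 turned round with the scaling, and si-snaR-A#3 was highest by both measures. The summed CPM was lowest in si-snaR-A#1 replicate 3, the library with the largest TMM factor. In bulk RNA, a change in the number of cells that express a gene and a change in RNA per cell cannot be told apart.

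**Figure D2:**
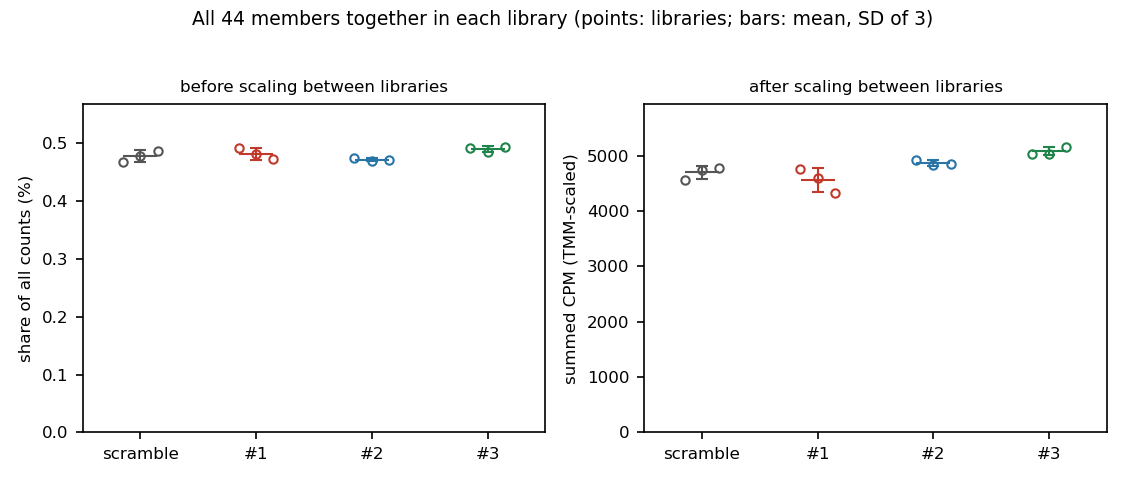
Share of all counts (left, percent) and summed TMM-scaled CPM (right) of the 44 members in each library, with points for libraries and bars for the mean and SD of 3. The shares lie between 0.467% and 0.493%, and the order of scramble, #1 and #2 differs between the panels.

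Each siRNA against scramble asks which proteasome mRNAs changed when snaR-A was targeted. After si-snaR-A#1, 11 of 42 tested members were called higher and 14 lower by edgeR's quasi-likelihood test (adjusted p under 0.05), against 21.9% higher and 23.3% lower of all 21999 genes tested. After si-snaR-A#2, 8 were higher and 3 lower, against a background of 13.7% and 12.1%. That count of higher members became 14 without si-snaR-A#1 replicate 3, the count of lower members became 6 under upper quartile scaling, and DESeq2 called 13 higher. After si-snaR-A#3, 18 were higher and 5 lower, against 16.5% and 13.0%. In the mean of the 3 siRNAs, 10 were higher and 7 lower, against 15.6% and 16.6%. A call in the mean can rest on 1 siRNA, as for PSMD10, which was called with si-snaR-A#3 alone. The median log2 fold change of the members was -0.066 after si-snaR-A#1, 0.048 after si-snaR-A#2, 0.12 after si-snaR-A#3 and 0.027 in the mean, where that of all genes was -0.019, -0.031, -0.033 and -0.038. Among tested genes whose mean reached 10 CPM it was -0.013, 0.041, 0.063 and 0.017. The member medians after si-snaR-A#2 and in the mean were thus close to those of abundant genes. When the trend with GC content and length was removed, the members' median after si-snaR-A#1 turned to 0.016 and 8 members in place of 14 were lower. Upper quartile scaling took the median to 0.0020 after si-snaR-A#2, 0.069 after si-snaR-A#3 and -0.0032 in the mean.

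Most members are abundant mRNAs, and abundant mRNAs were called more often. Among the 10198 tested genes whose mean reached 10 CPM, which include 41 of the members, 30.0% were higher and 33.3% lower after si-snaR-A#1, 26.6% and 13.6% after si-snaR-A#2, and 32.0% and 14.6% after si-snaR-A#3. Of the 41 members, 10 were higher and 14 lower after si-snaR-A#1, 8 and 3 after si-snaR-A#2, and 18 and 5 after si-snaR-A#3. In the mean of the 3 siRNAs, 28.3% of genes of at least 10 CPM were higher and 20.7% lower. Of the 41 members, 10 were higher and 7 lower in the mean. The member counts after si-snaR-A#1, after si-snaR-A#2 and in the mean were therefore near or under the share of genes of like abundance. The 18 higher members after si-snaR-A#3 were above it, a gap that was not tested. That count ran from 13 to 21 over the 22 alternatives. It was 13 without si-snaR-A#3 replicate 3, 14 under upper quartile scaling and 15 with no filter. The share of genes of like abundance was not recounted under the alternatives. No member passed a 2-fold change in any comparison, and the changes of tested members against scramble ran from -0.87 to 0.82 on the log2 scale.

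**Figure D3:**
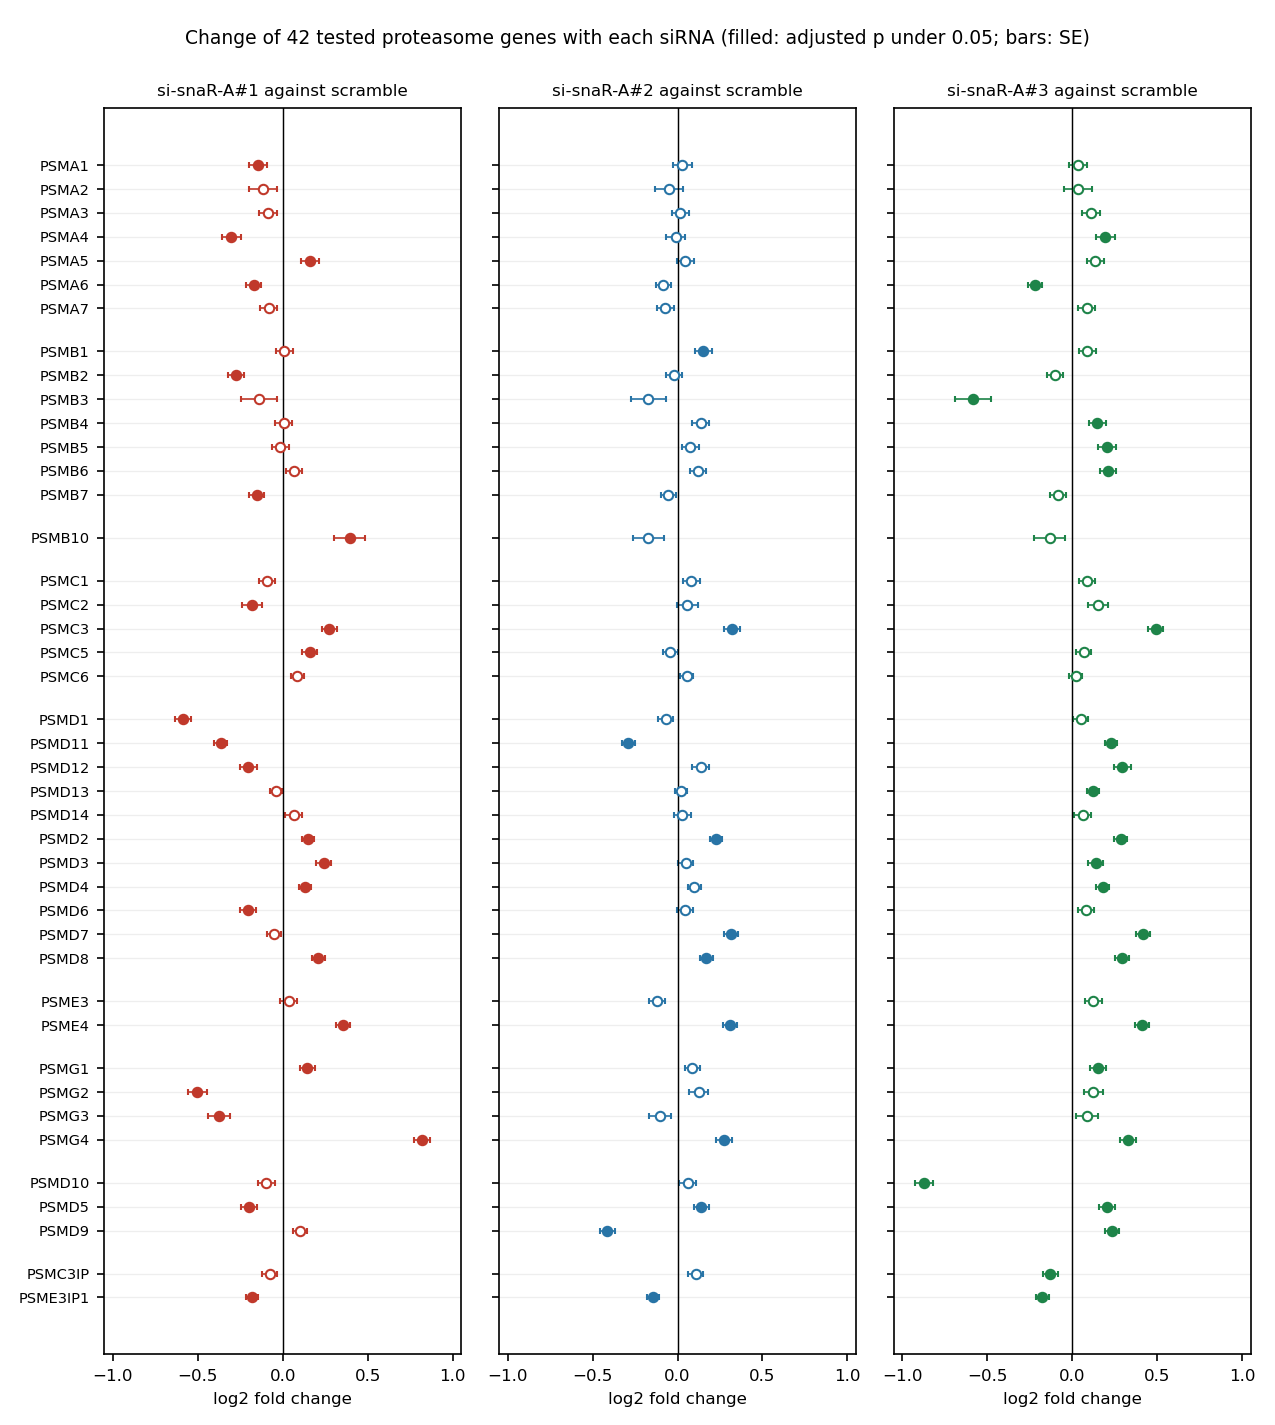
Log2 fold change of each of the 42 tested members against scramble with each siRNA, grouped by role from the alpha ring at the top, with bars for the SE and filled points for an adjusted p under 0.05. Changes ran from -0.87 (PSMD10 after si-snaR-A#3) to 0.82 (PSMG4 after si-snaR-A#1), and most points lie within 0.30 of 0.

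Of the 14 constitutive core subunits, 1 was called higher and 5 lower after si-snaR-A#1, 1 was higher after si-snaR-A#2, and 4 were higher and 2 lower after si-snaR-A#3. Over all tested genes the shares higher and lower were 21.9% and 23.3%, 13.7% and 12.1%, and 16.5% and 13.0% in the same order, and nothing particular to the core is read from these counts. Of the 7 alpha ring genes, which gate the entry to the barrel, 1 was called higher and 3 lower after si-snaR-A#1 and 1 in each direction after si-snaR-A#3. After si-snaR-A#2, edgeR called 0 of the 7, with 0 at an unadjusted p under 0.05 and 0 by DESeq2. After si-snaR-A#1, PSMA5 rose by 0.16 ± 0.050 (SE, adjusted p = 0.0202) and PSMA1 fell, with a log2 fold change of -0.15 ± 0.053 (SE, adjusted p = 0.0395). The call of PSMA1 was lost under 13 of the 22 alternatives tried, with 0.97 as the highest adjusted p, and that of PSMA5 under 3, each without 1 library (si-snaR-A#1 replicate 1, scramble replicate 1 or scramble replicate 2). PSMA4 carried both directions, with a log2 fold change of -0.30 ± 0.056 (SE, adjusted p = 0.000637) after si-snaR-A#1 and 0.19 ± 0.056 (SE, adjusted p = 0.0192) after si-snaR-A#3, where the call ended under 4 alternatives, among them removal of the trend with GC content and length (highest adjusted p = 0.0901). PSMA6 stood at 99.4, 105 and 103 CPM in the scramble libraries, 93.5, 93.3 and 86.0 after si-snaR-A#1, 98.4, 97.3 and 94.3 after si-snaR-A#2 and 84.9, 87.8 and 91.2 after si-snaR-A#3. All 9 siRNA libraries lay below the 3 scramble libraries. The change of PSMA6 was -0.17 ± 0.043 (SE, adjusted p = 0.00508) after si-snaR-A#1 and -0.22 ± 0.043 (SE, adjusted p = 0.00185) after si-snaR-A#3, and the value after si-snaR-A#2 was -0.084 ± 0.043 (SE, adjusted p = 0.180). Removing the trend with GC content and length ended the PSMA6 call after si-snaR-A#1 (log2 fold change -0.071, adjusted p = 0.255), and an unnamed gene, ENSG00000258790, overlaps exons of PSMA6 on the same strand. PSMA2, PSMA3 and PSMA7 were called with no siRNA.

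In the beta ring, which holds the active sites, 2 of 7 genes were lower after si-snaR-A#1, 1 was higher after si-snaR-A#2, and 3 were higher and 1 lower after si-snaR-A#3. PSMB5 stood at 80.1, 87.4 and 91.8 CPM in the scramble libraries, 89.8, 85.4 and 81.3 after si-snaR-A#1, 90.9, 93.2 and 89.2 after si-snaR-A#2 and 97.4, 99.2 and 102 after si-snaR-A#3. Its si-snaR-A#3 libraries lay above all scramble libraries and the other groups overlapped scramble. The log2 fold change of PSMB5 after si-snaR-A#3 was 0.21 ± 0.051 (SE, adjusted p = 0.00869). PSMB6 stood at 56.1, 59.9 and 61.8 CPM in the scramble libraries, 65.1, 62.3 and 58.8 after si-snaR-A#1, 65.0, 63.9 and 64.4 after si-snaR-A#2 and 66.5, 69.4 and 69.8 after si-snaR-A#3. The si-snaR-A#2 libraries and the si-snaR-A#3 libraries were above scramble, and the change of PSMB6 was 0.21 ± 0.045 (SE, adjusted p = 0.00370) after si-snaR-A#3 and 0.12 ± 0.045 (SE, adjusted p = 0.0708) after si-snaR-A#2. PSMB7 stood at 99.96, 106 and 106 CPM in the scramble libraries, 98.1, 94.7 and 86.9 after si-snaR-A#1, 100.4, 98.5 and 101 after si-snaR-A#2 and 97.6, 96.2 and 100.2 after si-snaR-A#3. Only the si-snaR-A#1 libraries lay below scramble without overlap. The change of PSMB7 after si-snaR-A#1 was -0.15 ± 0.045 (SE, adjusted p = 0.0128), which did not pass once scramble replicate 3 was left out (adjusted p = 0.0540). PSMB5 and PSMB6 were thus called after si-snaR-A#3 and PSMB7 after si-snaR-A#1.

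The largest core change was in PSMB3, a structural beta subunit (chromosome 17, 38752741 to 38764225, plus strand). PSMB3 stood at 62.6, 57.2 and 70.9 CPM in the scramble libraries, 60.2, 52.3 and 60.6 after si-snaR-A#1, 63.9, 58.0 and 47.5 after si-snaR-A#2 and 40.9, 46.2 and 40.4 after si-snaR-A#3. The si-snaR-A#3 libraries lay below all scramble libraries, and the other siRNA libraries overlapped scramble. PSMB3 fell to 0.668 of its scramble level after si-snaR-A#3 (-0.58, SE 0.11, adjusted p = 0.00121 on the log2 scale), and differed there from si-snaR-A#1 (adjusted p = 0.00394) and from si-snaR-A#2 (adjusted p = 0.0197). The mean of the 3 siRNAs was -0.30 ± 0.085 (SE, adjusted p = 0.0167), which did not pass once scramble replicate 3 was left out (adjusted p = 0.141). The SE of PSMB3 was the largest among the 14 constitutive core subunits. PSMB2 fell after si-snaR-A#1 (-0.28, SE 0.047, adjusted p = 0.000340), PSMB1 rose after si-snaR-A#2 (0.15, SE 0.051, adjusted p = 0.0443) and PSMB4 after si-snaR-A#3 (0.15, SE 0.050, adjusted p = 0.0428). The call of PSMB1 was lost under 11 of the 22 alternatives tried, and that of PSMB4 under 14.

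PSMB10 was higher after si-snaR-A#1. PSMB10 stood at 3.33, 3.42 and 3.18 CPM in the scramble libraries, 4.53, 4.18 and 4.33 after si-snaR-A#1, 3.11, 2.83 and 2.86 after si-snaR-A#2 and 2.86, 3.33 and 2.88 after si-snaR-A#3. The si-snaR-A#1 libraries lay above all others. The log2 fold change was 0.39 ± 0.091 (SE, adjusted p = 0.00330), and PSMB10 differed between si-snaR-A#1 and both si-snaR-A#2 (adjusted p = 0.000222) and si-snaR-A#3 (adjusted p = 0.000388). An unnamed gene that overlaps its exons on the same strand, ENSG00000261884, also rose after si-snaR-A#1, by 0.77 on the log2 scale, and reads shared by the pair cannot be told apart here.

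Among the 5 ATPases of the cap, PSMC3 (chromosome 11, 47418769 to 47426473, minus strand) changed most and with every siRNA. PSMC3 stood at 69.5, 68.3 and 72.9 CPM in the scramble libraries, 90.2, 84.8 and 79.8 after si-snaR-A#1, 87.9, 85.7 and 89.9 after si-snaR-A#2 and 101, 96.1 and 99.3 after si-snaR-A#3. The 9 siRNA libraries lay above the 3 scramble libraries. PSMC3 rose 1.21-fold after si-snaR-A#1, 1.25-fold after si-snaR-A#2 and 1.41-fold after si-snaR-A#3. On the log2 scale these were 0.27 ± 0.046 (SE, adjusted p = 0.000320), 0.32 ± 0.046 (SE, adjusted p = 0.000232) and 0.49 ± 0.046 (SE, adjusted p = 6.91e-06). The rise was larger after si-snaR-A#3 than after si-snaR-A#1 (adjusted p = 0.00165). Of the other ATPases, PSMC2 fell and PSMC5 rose after si-snaR-A#1 (-0.18, SE 0.059, adjusted p = 0.0248 and 0.16, SE 0.044, adjusted p = 0.0102), and PSMC1 and PSMC6 were called with no siRNA. The value of PSMC2 turned to 0.016 when the trend with GC content and length was removed (adjusted p = 0.818), and PSMC5 did not pass without si-snaR-A#1 replicate 1 (adjusted p = 0.0521). PMPCB, at 120 CPM in scramble, overlaps exons of PSMC2 on the same strand and changed by -0.082 after si-snaR-A#1. FTSJ3, at 86.6 CPM in scramble, overlaps exons of PSMC5 on the opposite strand and changed by -0.15 there. Reads shared by these pairs cannot be told apart here.

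The 11 non-ATPase subunits of the cap were one-sided after si-snaR-A#3. There, edgeR called 8 higher and none lower, against 16.5% and 13.0% of all tested genes and 32.0% and 14.6% of those of at least 10 CPM. Their median log2 fold change was 0.18 with all 11 values above 0, against a median of 0.063 for genes of at least 10 CPM. Over the 22 alternatives between 6 and 8 of the 11 were higher and 0 lower. At an unadjusted p under 0.05 there were also 8 higher and 0 lower, and DESeq2 called 8 and 0. The same 11 genes split into 4 higher and 4 lower after si-snaR-A#1, and 3 higher and 1 lower after si-snaR-A#2, against 21.9% and 23.3%, and 13.7% and 12.1%, of all tested genes. Their summed CPM was 1462 ± 20.2 in scramble, 1414 ± 59.9 after si-snaR-A#1, 1542 ± 15.1 after si-snaR-A#2 and 1679 ± 25.7 after si-snaR-A#3 (SD, n = 3).

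PSMD2 and PSMD8 were the non-ATPase subunits called higher with all 3 siRNAs. PSMD2 stood at 245, 248 and 251 CPM in the scramble libraries, 284, 279 and 261 after si-snaR-A#1, 289, 292 and 288 after si-snaR-A#2 and 302, 300.4 and 303 after si-snaR-A#3. PSMD8 stood at 88.3, 91.0 and 94.8 CPM in the scramble libraries, 109, 108 and 100.4 after si-snaR-A#1, 104, 102 and 103 after si-snaR-A#2 and 111, 111 and 114 after si-snaR-A#3. For both genes all 9 siRNA libraries lay above all 3 scramble libraries. The log2 fold changes of PSMD2 (chromosome 3, 184299198 to 184309050, plus strand) were 0.15 ± 0.036 (SE, adjusted p = 0.00467), 0.22 ± 0.036 (SE, adjusted p = 0.000587) and 0.28 ± 0.036 (SE, adjusted p = 8.47e-05). Those of PSMD8 (chromosome 19, 38374563 to 38383850, plus strand) were 0.21 ± 0.040 (SE, adjusted p = 0.000824), 0.17 ± 0.040 (SE, adjusted p = 0.00704) and 0.29 ± 0.040 (SE, adjusted p = 0.000138). PSMD4, a ubiquitin receptor, also had all 9 siRNA libraries above scramble, with calls after si-snaR-A#1 (0.13, SE 0.036, adjusted p = 0.0101, lost with no filter on low counts) and si-snaR-A#3 (0.18, SE 0.036, adjusted p = 0.00232) and a value of 0.10 ± 0.036 (SE, adjusted p = 0.0592) after si-snaR-A#2.

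Other non-ATPase subunits separated the siRNAs. PSMD1, the large scaffold of the cap beside PSMD2, fell after si-snaR-A#1 (chromosome 2, 231056845 to 231173116, plus strand). PSMD1 stood at 182, 185 and 183 CPM in the scramble libraries, 128, 123 and 114 after si-snaR-A#1, 179, 168 and 177 after si-snaR-A#2 and 193, 186 and 190.2 after si-snaR-A#3. The si-snaR-A#1 libraries lay far below the other 9. The log2 fold change was -0.59 ± 0.045 (SE, adjusted p = 3.72e-07), against -0.070 ± 0.044 (SE, adjusted p = 0.289) after si-snaR-A#2 and 0.050 ± 0.044 (SE, adjusted p = 0.443) after si-snaR-A#3, and PSMD1 differed between si-snaR-A#1 and each of these (adjusted p = 1.04e-06 and adjusted p = 1.45e-07). PSMD1 and PSMD2, partners in the base of the cap, therefore moved in opposite directions after si-snaR-A#1.

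PSMD7, the inactive partner of the deubiquitinase PSMD14, rose after si-snaR-A#2 and si-snaR-A#3. PSMD7 stood at 102, 101 and 106 CPM in the scramble libraries, 105, 96.8 and 95.9 after si-snaR-A#1, 131, 127 and 126 after si-snaR-A#2 and 139, 133 and 141 after si-snaR-A#3. The si-snaR-A#1 libraries overlapped scramble and the other 6 siRNA libraries lay above both. The log2 fold change was 0.31 ± 0.043 (SE, adjusted p = 0.000154) after si-snaR-A#2 and 0.42 ± 0.043 (SE, adjusted p = 1.31e-05) after si-snaR-A#3, and -0.053 ± 0.043 (SE, adjusted p = 0.343) after si-snaR-A#1. The enzyme PSMD14 itself was called with no siRNA, with values of 0.064, 0.028 and 0.062.

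PSMD11, a lid subunit that contacts the alpha ring, was lower with 2 siRNAs and higher with the third. PSMD11 stood at 129, 132 and 125 CPM in the scramble libraries, 103, 97.1 and 99.6 after si-snaR-A#1, 109, 105 and 102 after si-snaR-A#2 and 150.1, 151 and 151 after si-snaR-A#3. No siRNA group overlapped scramble. The changes were -0.37 ± 0.036 (SE, adjusted p = 3.77e-06), -0.29 ± 0.036 (SE, adjusted p = 8.72e-05) and 0.23 ± 0.036 (SE, adjusted p = 0.000449). PSMD12, another lid subunit, fell after si-snaR-A#1 (-0.20, SE 0.049, adjusted p = 0.00443) and rose after si-snaR-A#3 (0.29, SE 0.049, adjusted p = 0.000644). PSMD6 was lower after si-snaR-A#1 (-0.20, SE 0.046, adjusted p = 0.00255), PSMD3 was higher after si-snaR-A#1 (0.24) and also after si-snaR-A#3 (0.14), and PSMD13 was higher after si-snaR-A#3 (0.12). Removing the trend with GC content and length ended the calls of PSMD6 and PSMD12 after si-snaR-A#1, and those of PSMD3 and PSMD13 after si-snaR-A#3 were each lost under 6 of the 22 alternatives.

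Of the activators, PSME4 (PA200), a large nuclear protein that opens the core without ubiquitin, was higher with every siRNA (chromosome 2, 53864069 to 53970993, minus strand). PSME4 stood at 200.2, 188 and 190.5 CPM in the scramble libraries, 254, 245 and 242 after si-snaR-A#1, 239, 237 and 242 after si-snaR-A#2 and 269, 255 and 246 after si-snaR-A#3. The 9 siRNA libraries lay above the 3 scramble libraries. PSME4 rose 1.28-fold, 1.24-fold and 1.33-fold, with log2 fold changes of 0.36 ± 0.041 (SE, adjusted p = 1.31e-05), 0.31 ± 0.041 (SE, adjusted p = 0.000124) and 0.41 ± 0.041 (SE, adjusted p = 1.07e-05). PSME3, the nuclear PA28 gamma, was called with no siRNA, with values of 0.035, -0.12 and 0.12. PSME3IP1, which binds PSME3, was the 1 member called lower with every siRNA. PSME3IP1 stood at 79.3, 77.9 and 80.0 CPM in the scramble libraries, 69.3, 69.6 and 70.5 after si-snaR-A#1, 74.2, 67.9 and 72.6 after si-snaR-A#2 and 69.2, 70.7 and 70.3 after si-snaR-A#3. All 9 siRNA libraries lay below scramble, and the changes were -0.18 ± 0.036 (SE, adjusted p = 0.00129), -0.14 ± 0.036 (SE, adjusted p = 0.0113) and -0.17 ± 0.036 (SE, adjusted p = 0.00297). The call after si-snaR-A#2 was lost without si-snaR-A#2 replicate 2 (adjusted p = 0.0603) and without scramble replicate 3 (adjusted p = 0.0783). PSMC3IP was called lower after si-snaR-A#3 (-0.13, SE 0.044, adjusted p = 0.0424), and lost this call under 15 of the 22 alternatives, DESeq2 and the exact test among them (highest adjusted p = 0.18).

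The chaperones of the core gave the largest rise of any tested member against scramble. PSMG4, which pairs with PSMG3 in alpha ring assembly, lies on chromosome 6, 3231403 to 3303373, plus strand. PSMG4 stood at 13.8, 14.04 and 13.7 CPM in the scramble libraries, 24.3, 23.6 and 25.2 after si-snaR-A#1, 17.4, 16.5 and 16.3 after si-snaR-A#2 and 16.9, 17.2 and 18.0 after si-snaR-A#3. The si-snaR-A#1 libraries stood apart above all others, and the other siRNA libraries lay between them and scramble. PSMG4 rose 1.76-fold after si-snaR-A#1, 1.21-fold after si-snaR-A#2 and 1.26-fold after si-snaR-A#3, with log2 fold changes of 0.82 ± 0.046 (SE, adjusted p = 2.96e-08), 0.27 ± 0.046 (SE, adjusted p = 0.000798) and 0.33 ± 0.046 (SE, adjusted p = 0.000180). The rise after si-snaR-A#1 was larger than after si-snaR-A#2 (adjusted p = 9.29e-07) and si-snaR-A#3 (adjusted p = 2.02e-06). Exons of TUBB2B and SLC22A23 lie over exons of PSMG4 on the opposite strand, and whether the counting used strand is not stated. TUBB2B changed by 0.023 after si-snaR-A#1 and fell by 1.21 after si-snaR-A#2 on the log2 scale, and SLC22A23 changed by -0.0022 after si-snaR-A#1.

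PSMG3, the partner of PSMG4, went the other way after si-snaR-A#1. PSMG3 stood at 38.2, 35.5 and 39.2 CPM in the scramble libraries, 29.5, 29.3 and 28.1 after si-snaR-A#1, 36.8, 35.2 and 33.2 after si-snaR-A#2 and 36.5, 39.5 and 44.1 after si-snaR-A#3. The si-snaR-A#1 libraries lay below the other 9, and the log2 fold change was -0.38 ± 0.065 (SE, adjusted p = 0.000418). PSMG3-AS1, on the opposite strand, was at 1.21 CPM in scramble. PSMG2 stood at 33.5, 35.5 and 36.4 CPM in the scramble libraries, 24.8, 26.7 and 22.8 after si-snaR-A#1, 39.4, 38.3 and 37.1 after si-snaR-A#2 and 37.2, 39.0 and 38.6 after si-snaR-A#3. PSMG2, which pairs with PSMG1, was likewise lowest in the si-snaR-A#1 libraries, with a change of -0.50 ± 0.056 (SE, adjusted p = 9.72e-06), and 0.12 ± 0.055 (SE, adjusted p = 0.127) and 0.12 ± 0.055 (SE, adjusted p = 0.115) with the other siRNAs. SPIRE1, which overlaps PSMG2 on the opposite strand, rose by 0.29 after si-snaR-A#1. PSMG1 rose by 0.14 ± 0.046 (SE, adjusted p = 0.0205) after si-snaR-A#1 and 0.15 ± 0.046 (SE, adjusted p = 0.0247) after si-snaR-A#3. The call of PSMG1 after si-snaR-A#1 was lost with no filter and without si-snaR-A#1 replicate 1 or 2 or scramble replicate 1 (highest adjusted p = 0.0846), and that after si-snaR-A#3 under 3 alternatives (highest adjusted p = 0.0985). In the pair of PSMG3 and PSMG4, 1 partner was higher and the other lower after si-snaR-A#1 under every alternative, while for PSMG1 and PSMG2 this rests on the less stable call of PSMG1. None of the 4 was called lower after si-snaR-A#2 or si-snaR-A#3, where edgeR counted 0 lower also at an unadjusted p under 0.05 and DESeq2 0. Of all tested genes, 12.1% and 13.0% were lower there, so nothing particular to the core chaperones is read from this.

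The chaperones of the ATPase ring include the member that fell furthest. PSMD10 (gankyrin) lies on chromosome X, 108084207 to 108091549, minus strand. PSMD10 stood at 123, 133 and 132 CPM in the scramble libraries, 125, 126 and 111 after si-snaR-A#1, 136, 135 and 133 after si-snaR-A#2 and 67.2, 70.8 and 73.7 after si-snaR-A#3. The si-snaR-A#3 libraries lay far below the other 9, and those of si-snaR-A#1 overlapped scramble. PSMD10 fell to 0.546 of its scramble level after si-snaR-A#3 (-0.87, SE 0.053, adjusted p = 2.05e-07 on the log2 scale). The values were -0.097 ± 0.052 (SE, adjusted p = 0.154) after si-snaR-A#1 and 0.059 ± 0.052 (SE, adjusted p = 0.461) after si-snaR-A#2, and PSMD10 differed between si-snaR-A#3 and each of them (adjusted p = 1.12e-07 and adjusted p = 4.2e-07). It was the largest change of any member in any comparison with scramble, and it kept its call under all 22 alternatives.

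PSMD9 fell after si-snaR-A#2. PSMD9 stood at 32.0, 32.8 and 33.9 CPM in the scramble libraries, 36.6, 34.3 and 35.1 after si-snaR-A#1, 24.7, 24.3 and 25.2 after si-snaR-A#2 and 38.0, 37.9 and 40.3 after si-snaR-A#3. The si-snaR-A#2 libraries lay below scramble and the other siRNA libraries above it. The changes were -0.41 ± 0.042 (SE, adjusted p = 1.63e-05) after si-snaR-A#2, 0.24 ± 0.041 (SE, adjusted p = 0.000931) after si-snaR-A#3 and 0.10 ± 0.042 (SE, adjusted p = 0.0624) after si-snaR-A#1, and si-snaR-A#2 differed from si-snaR-A#3 (adjusted p = 1.21e-06). PSMD5, the least abundant of the group per length, was lower after si-snaR-A#1 (-0.20, SE 0.046, adjusted p = 0.00311) and higher after si-snaR-A#2 (0.14, SE 0.045, adjusted p = 0.0372) and si-snaR-A#3 (0.20, SE 0.045, adjusted p = 0.00445). Its call after si-snaR-A#1 ended when the trend with GC content and length was removed (highest adjusted p = 0.52), and that after si-snaR-A#2 was lost under 11 of the 22 alternatives (highest adjusted p = 0.162). Each base chaperone thus had its own siRNA of lowest mean level, si-snaR-A#1 for PSMD5, si-snaR-A#2 for PSMD9 and si-snaR-A#3 for PSMD10.

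**Figure D4:**
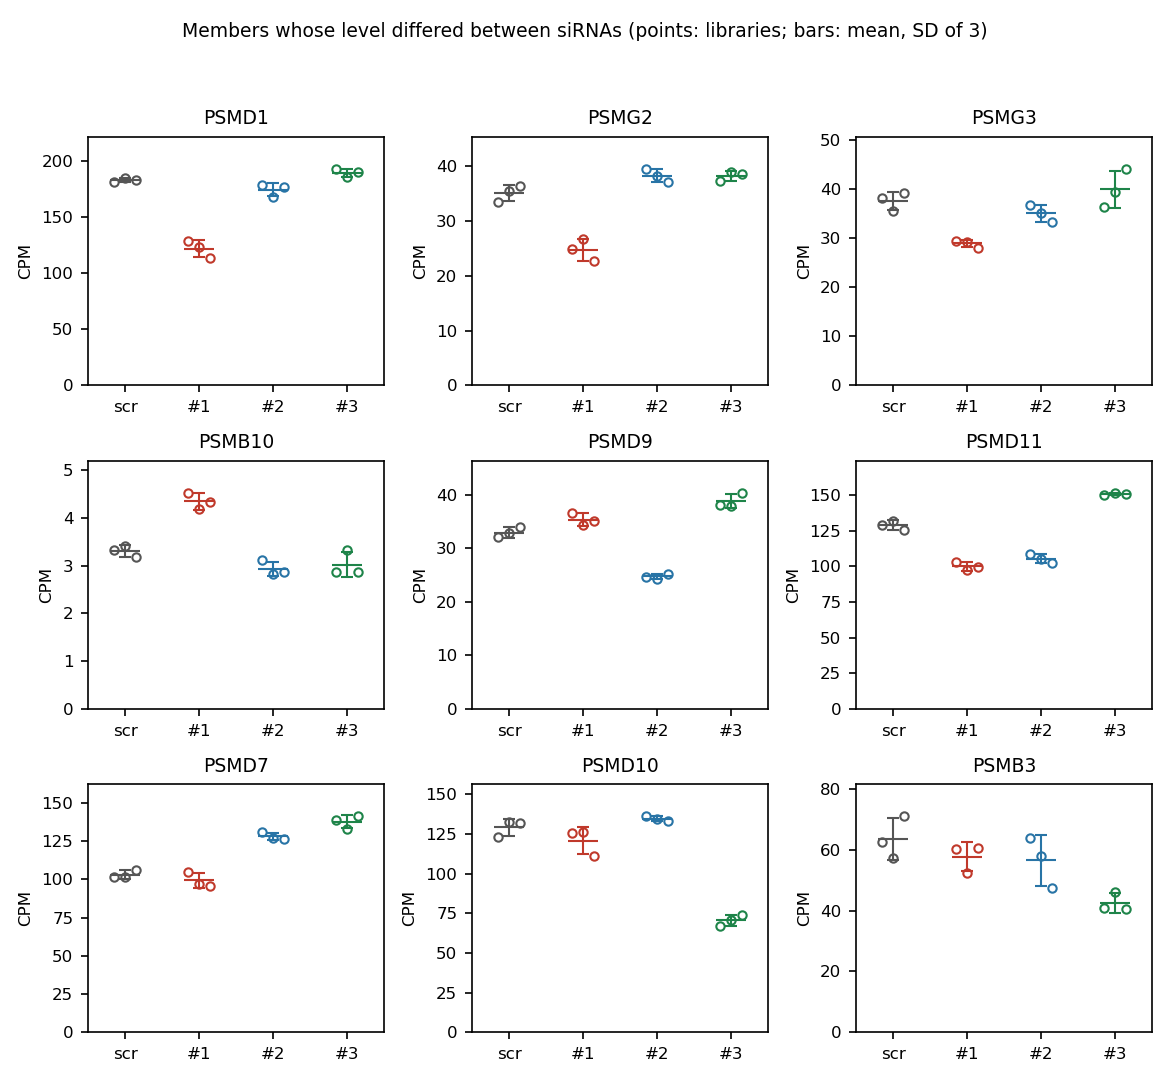
CPM of 9 members in each library, with circles for libraries, bars for the mean and SD of 3, and groups scramble (scr), si-snaR-A#1 (#1), #2 and #3 on the horizontal axis. PSMD1, PSMG2 and PSMG3 are lowest with #1, PSMD9 with #2, and PSMD10 and PSMB3 with #3, while PSMB10 is highest with #1.

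Counted over the siRNAs, 7 of the 42 tested members were called with none, 19 with 1, 8 with 2 and 8 with all 3. Of the last 8, PSMC3, PSMD2, PSMD8, PSME4 and PSMG4 were higher with each siRNA, PSME3IP1 was lower with each, and PSMD5 and PSMD11 changed direction. The shares of all tested genes called with none, 1, 2 or 3 siRNAs, or in opposite directions, were not counted. In either direction, 45.2% of all tested genes were called after si-snaR-A#1, 25.8% after si-snaR-A#2 and 29.4% after si-snaR-A#3. The background for a call higher with each siRNA was 5.16% of tested genes and for lower 2.84%. The count of 1 member lower with each siRNA became 0 without si-snaR-A#2 replicate 2 or without scramble replicate 3. The siRNAs share their scramble libraries, so such counts are not independent between siRNAs. The paper also lists overlapping siRNA sequences, all against the 3′ part of snaR-A, so the 3 siRNAs are not separate target sites. By library, 6 members had all 9 siRNA libraries above scramble, against 6.63% of tested genes, and 2 had all 9 below, against 5.51%. These background shares were not counted among genes of at least 10 CPM, which include most members and were called more often with each siRNA. Nothing particular to the members is therefore read from these counts. The 5 members called higher with each siRNA were called so under all 22 alternatives. Those 5 span the base and lid of the cap, an activator and a core chaperone. None is a core subunit, but with a background of 5.16% nothing particular to the core is read from this. Besides PSMD5 and PSMD11, the members PSMA4, PSMD9 and PSMD12 were called in opposite directions by different siRNAs, which makes 5 in all. Removing the trend with GC content and length ended a call behind this for PSMA4, PSMD5 and PSMD12, while those of PSMD9 and PSMD11 held under all 22 alternatives.

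**Figure D5:**
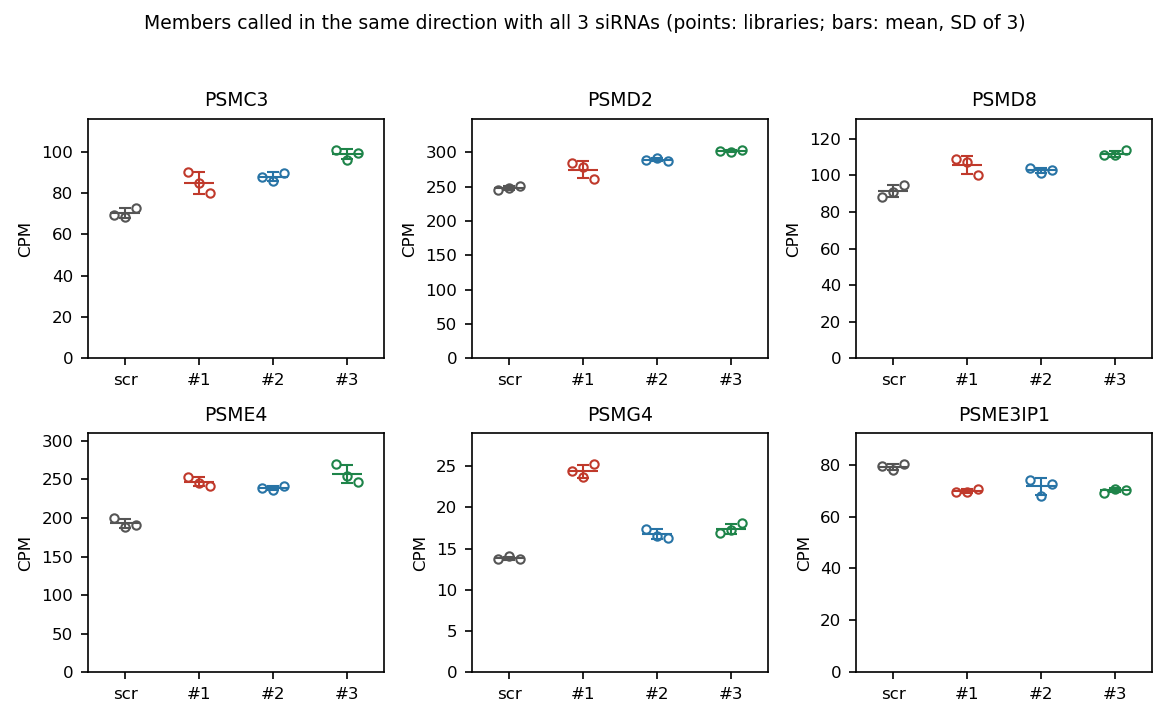
CPM of the 6 members called in 1 direction after every siRNA, with circles for libraries and bars for the mean and SD of 3, for scramble (scr), si-snaR-A#1 (#1), #2 and #3. All 9 siRNA libraries lie above scramble for PSMC3, PSMD2, PSMD8, PSME4 and PSMG4 and below it for PSME3IP1.

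The pairs of siRNAs show where the members differed between treatments with the same target. With si-snaR-A#1 set against si-snaR-A#2, 6 members were higher and 16 lower with the first, against 23.7% and 23.0% of tested genes. The 6 higher became 12 under upper quartile scaling and 10 with the trend with GC content and length removed. With si-snaR-A#1 set against si-snaR-A#3, 4 were higher and 22 lower with the first, against 23.8% and 24.8%. The 4 higher members became 9 under upper quartile scaling or with that trend removed, 8 when a mean of at least 1 CPM was required, and 7 without si-snaR-A#1 replicate 3. Among tested genes of at least 10 CPM, 37.7% were lower after si-snaR-A#1 than after si-snaR-A#2 and 40.7% lower than after si-snaR-A#3. The shares higher were 26.3% and 25.4% in the same order. Of the 11 non-ATPase cap subunits, 7 were lower after si-snaR-A#1 than after si-snaR-A#3, the widest gaps being PSMD1 (-0.64, SE 0.045, adjusted p = 1.45e-07), PSMD11 (-0.59, SE 0.037, adjusted p = 4.83e-08) and PSMD12 (-0.50, SE 0.049, adjusted p = 3.13e-06). With si-snaR-A#2 set against si-snaR-A#3, 4 members were higher and 6 lower with the first, against 6.52% and 9.03%. That pair differed most in PSMD10 (0.93, SE 0.053, adjusted p = 4.2e-07) and PSMD9 (-0.65, SE 0.042, adjusted p = 1.21e-06). The 4 higher members became 2 without si-snaR-A#2 replicate 1 or 2 or si-snaR-A#3 replicate 1, and the 6 lower ones became 3 without si-snaR-A#1 replicate 2, si-snaR-A#2 replicate 1 or 2, or si-snaR-A#3 replicate 3.

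Around the proteasome genes, 36 genes of the same pathway were listed by role and all were tested. They comprise 14 proteasome-bound proteins and maturation factors, 5 substrate shuttles, 8 genes that control proteasome transcription, and 9 genes of ubiquitin, its E1 enzymes and the p97 segregase. After si-snaR-A#1, 9 were higher and 15 lower (25% and 41.7%), against 21.9% and 23.3% of all tested genes and 30.0% and 33.3% of those of at least 10 CPM. After si-snaR-A#2, 9 and 2 were called (25% and 5.56%), against 13.7% and 12.1%, or 26.6% and 13.6% at that level. After si-snaR-A#3, they were 14 and 2 (38.9% and 5.56%), against 16.5% and 13.0%, or 32.0% and 14.6%. In the mean of the siRNAs, 8 and 2 were called (22.2% and 5.56%), against 15.6% and 16.6%, or 28.3% and 20.7%. The gaps were not tested. The median log2 fold change of the 36 genes was -0.088, 0.059, 0.085 and 0.016 in that order. That of genes of at least 10 CPM was -0.013, 0.041, 0.063 and 0.017. The largest rise in the mean among them was NFE2L1, the factor that drives proteasome genes when the particle is blocked. NFE2L1 stood at 112, 107 and 109.9 CPM in the scramble libraries, 184, 178 and 157 after si-snaR-A#1, 193, 197 and 196 after si-snaR-A#2 and 168, 167 and 165 after si-snaR-A#3. All 9 siRNA libraries lay above scramble. The changes were 0.66 ± 0.050 (SE, adjusted p = 3.68e-07), 0.84 ± 0.050 (SE, adjusted p = 2.18e-07) and 0.61 ± 0.050 (SE, adjusted p = 2.36e-06).

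MIDN, which carries proteins to the proteasome without ubiquitin, and UBE3C, a ubiquitin ligase that binds the proteasome, were the next largest rises in the mean among these 36 genes. MIDN stood at 37.2, 34.2 and 35.4 CPM in the scramble libraries, 61.6, 60.6 and 59.0 after si-snaR-A#1, 46.3, 44.3 and 45.6 after si-snaR-A#2 and 43.7, 45.7 and 46.7 after si-snaR-A#3. MIDN was above scramble in all 9 libraries, with changes of 0.76 ± 0.041 (SE, adjusted p = 2.04e-08), 0.35 ± 0.041 (SE, adjusted p = 5.2e-05) and 0.35 ± 0.041 (SE, adjusted p = 4.53e-05). UBE3C stood at 226, 229 and 232 CPM in the scramble libraries, 292, 280.1 and 258 after si-snaR-A#1, 286, 287 and 280.3 after si-snaR-A#2 and 297, 284 and 277 after si-snaR-A#3. UBE3C too was above scramble in all 9 libraries, and its changes were 0.27 ± 0.046 (SE, adjusted p = 0.000324), 0.31 ± 0.046 (SE, adjusted p = 0.000272) and 0.32 ± 0.046 (SE, adjusted p = 0.000197).

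The falls in the mean were UCHL5, a deubiquitinase of the cap, and UBA6, an E1 enzyme. UCHL5 stood at 188, 205 and 194 CPM in the scramble libraries, 121, 124 and 114 after si-snaR-A#1, 216, 203 and 222 after si-snaR-A#2 and 218, 212 and 211 after si-snaR-A#3. UBA6 stood at 141, 147 and 129 CPM in the scramble libraries, 91.6, 91.5 and 92.0 after si-snaR-A#1, 149, 149.5 and 152 after si-snaR-A#2 and 161, 155 and 156 after si-snaR-A#3. UBA6 was called higher after si-snaR-A#3, and this call ended when the trend with GC content and length was removed (adjusted p = 0.418). Both UCHL5 and UBA6 were low after si-snaR-A#1 alone. UCHL5 changed by -0.71 ± 0.047 (SE, adjusted p = 1.07e-07) and UBA6 by -0.60 ± 0.043 (SE, adjusted p = 2.33e-07) there, against 0.13 and 0.11 after si-snaR-A#2 and 0.13 and 0.18 after si-snaR-A#3. In the mean, UCHL5 was -0.15 ± 0.037 (SE, adjusted p = 0.00780) and lost its call without scramble replicate 2 (adjusted p = 0.0702), and UBA6 was -0.10 ± 0.035 (SE, adjusted p = 0.0393) and lost its call under 14 of 20 alternatives, with 0.272 as the highest adjusted p.

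Further proteins of the particle lie outside the naming rule. POMP stood at 71.0, 76.4 and 75.7 CPM in the scramble libraries, 67.4, 63.1 and 59.9 after si-snaR-A#1, 73.7, 71.4 and 72.5 after si-snaR-A#2 and 74.5, 75.6 and 74.5 after si-snaR-A#3. POMP, which matures the beta ring, was lower after si-snaR-A#1 (-0.23, SE 0.045, adjusted p = 0.000965), and this turned to 0.048 when the trend with GC content and length was removed (adjusted p = 0.533). ADRM1 stood at 32.0, 32.4 and 36.1 CPM in the scramble libraries, 38.2, 35.0 and 33.9 after si-snaR-A#1, 26.3, 25.9 and 26.6 after si-snaR-A#2 and 32.9, 34.4 and 35.2 after si-snaR-A#3. The ubiquitin receptor ADRM1, which recruits UCHL5, was lower after si-snaR-A#2 (-0.35, SE 0.056, adjusted p = 0.000537) and overlapped scramble with the other siRNAs. SEM1 stood at 94.3, 101 and 104 CPM in the scramble libraries, 97.2, 97.9 and 85.4 after si-snaR-A#1, 104, 102 and 106 after si-snaR-A#2 and 100.2, 106 and 103 after si-snaR-A#3. SEM1, the smallest subunit of the lid, was called with no siRNA. PSMF1 stood at 66.0, 75.9 and 72.7 CPM in the scramble libraries, 81.3, 82.1 and 70.4 after si-snaR-A#1, 74.5, 75.3 and 76.4 after si-snaR-A#2 and 60.9, 61.2 and 60.4 after si-snaR-A#3. PSMF1 (PI31), first known as an inhibitor of the core, was lower after si-snaR-A#3 (-0.23, SE 0.060, adjusted p = 0.0106), a call lost without scramble replicate 2 (adjusted p = 0.0538).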

How the data were processed

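The authors sequenced libraries of RNA that was rRNA-depleted and enriched for poly(A) from 12 samples with a stranded kit. The submitters' processing notes name Trim Galore, Salmon and hg38, and the transcriptome release, any scaling by transcript length and the use of strand in counting are not given in the sources used here. The deposited table holds estimated counts per Ensembl gene, rounded here to whole numbers, and 0 columns belonged to no sample. Symbols and coordinates came from GENCODE release 44, which holds 58160 of the 63541 IDs, and promoters from RefSeq (GRCh38.p14).

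Genes passing filterByExpr (21999) were scaled by TMM and fitted once over the 12 libraries with edgeR 4.0.16 (quasi-likelihood, R 4.3.3), with Benjamini-Hochberg adjustment over all tested genes and calls at an adjusted p under 0.05. Log2 fold changes are given with their SE, CPM are TMM-scaled, and the method was tested on simulated counts. The members and lists were chosen with earlier results of these data known. A marker of kidney and a gene of the pathway list are not reported here and were left out of their lists. Values per library were given for PSMB5, PSMB6 and PSMB7, for the 3 largest called rises and falls among members in each comparison with scramble, for members called in 1 direction with all 3 siRNAs, for members outside the fit, and for 5 fixed pathway genes plus up to 3 called rises and falls of the pathway list. Alternatives were RLE and upper quartile scaling, no filter, a mean of at least 1 CPM, a replicate block, removal of a GC and length trend (loess span 0.3), both together, edgeR's exact test, only the 2 groups compared, DESeq2 1.42.0, and each library left out. Replicates differed by more than sampling noise. Counting error is small at these depths, and the spread between replicates sets the precision.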

Additional observations from a re-analysis of the deposited data

How the results depend on the processing

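Of the calls against scramble, 14 of 25 members held under every alternative after si-snaR-A#1, 8 of 11 after si-snaR-A#2, 17 of 23 after si-snaR-A#3 and 11 of 17 in the mean. Removing the GC and length trend left 8 members lower after si-snaR-A#1 (7 with the replicate block too) and moved their median log2 fold change to 0.0161 (0.0158). It gave 10 higher after si-snaR-A#1 than after si-snaR-A#2 (10 with the block) and 9 higher than after si-snaR-A#3 (8). With this trend removed, without and with the replicate block, log2 fold changes reversed for PSMC2 (0.0162 and 0.0157) and POMP (0.0475 and 0.0476) after si-snaR-A#1. For si-snaR-A#1 set against si-snaR-A#2 they reversed for PSMD10 (0.0086 and 0.0085) and POMP (0.0734 and 0.0733), and for si-snaR-A#1 set against si-snaR-A#3 in PSME4 (0.0925 and 0.0927) and PSMG1 (0.1354 and 0.1359). Upper quartile scaling gave 6 lower after si-snaR-A#2, 12 higher after si-snaR-A#1 than after si-snaR-A#2, 9 higher than after si-snaR-A#3, 2 lower with each of the 3 siRNAs, and medians of 0.0020 after si-snaR-A#2, 0.0692 after si-snaR-A#3 and -0.0032 in the mean. RLE scaling and DESeq2 gave medians of 0.0692 and 0.0693 after si-snaR-A#2, where DESeq2 called 13 higher. A mean of at least 1 CPM gave 8 higher after si-snaR-A#1 than after si-snaR-A#3. The causes were not tested. With each library left out, members higher after si-snaR-A#2 numbered 6 to 14 and their median was 0.0256 to 0.0782. Members higher after si-snaR-A#3 numbered 13 to 19. Members higher after si-snaR-A#1 than after si-snaR-A#3 numbered 4 to 7, those higher after si-snaR-A#2 than after si-snaR-A#3 2 to 4 and lower 3 to 6, and those lower with each siRNA 0 to 1.

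Replicate numbers gave no pairing, since deviations of same-numbered libraries correlated between -0.0657 and 0.0847. The replicate block gave 11 higher and 13 lower after si-snaR-A#1, 7 and 3 after si-snaR-A#2, 17 and 5 after si-snaR-A#3 and 10 and 7 in the mean. Neither the exact test nor the fit of only the groups compared was run for the mean. No scaling moved the median of all genes by 0.1 or more, but some shifts were near the size of the members' medians. Upper quartile scaling moved the median of all genes by -0.046 after si-snaR-A#2, where the members' median was 0.048. After si-snaR-A#3 it moved that median by -0.053.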

Other observations

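PSMC1P1, a processed copy of the ATPase gene PSMC1, had a mean of 23.0 CPM over the 12 libraries. Reads of the pair may have been split between them by the counting, so the level of PSMC1 is uncertain. Every other of the 38 pseudogenes whose parent is a member was at most 0.0286 CPM. The 44 members lie on many chromosomes, with 8 on chromosome 17, 6 on chromosome 14 and 4 on chromosome 1. Exons of 6 members lie over another gene on the same strand and those of 16 over a gene on the opposite strand.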
